A study of Mus musculus with 3 samples.

Results

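Retinal endothelial cells were the 393 cells of cluster 11 in the cell table that the authors deposited, of 15242 cells in all. They were taken by that cluster number, which the authors had set by clustering the cells on the most variable genes. The study asked how a drug mixture acts on the degenerating retina, and each of its 3 groups was 1 droplet library of papain-dissociated retina. The WT group was C57BL/6J mice without a mutation on plain chow. The rd10-vehicle group carried the rd10 mutation on the same chow, and the rd10-TMB group carried it on chow with tamsulosin, metoprolol and bromocriptine (TMB). The rd10 allele is a point mutation of Pde6b, a phosphodiesterase gene of rods, after which rods and then cones degenerate. Tamsulosin blocks alpha-1 adrenergic receptors, metoprolol blocks beta-1 adrenergic receptors and bromocriptine activates D2-like dopamine receptors. All mice were housed in the dark for life and were 8 weeks old. The rd10 libraries came from females only and the WT library from 2 females and 2 males, so genotype and sex cannot be told apart in part of the WT cells. The labels give 4 pooled mice for each library, a number that differs from the text of the study for the rd10 groups. Without replicates, groups were set side by side and not tested. Intervals are 95% intervals that cover counting error only, and the 3 pairs of libraries share libraries and are not independent of each other.

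The endothelium of retinal vessels forms the inner blood-retina barrier. Its cells are sealed by tight junctions of claudin-5 and occludin, have few caveolae, and carry glucose, lactate and amino acids into the tissue through dedicated transporters. Norrin from Muller glia signals through frizzled-4, LRP5 and tetraspanin-12 on these cells and keeps the barrier state. Capillary endothelium is wrapped closely by pericytes, with which it shares a basement membrane. Arterial, capillary and venous endothelium form a continuum with transcripts of their own, and the venous side is the usual site of leukocyte adhesion through ICAM-1 and VCAM-1.

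The label held for most of the cells. Cldn5, Ly6c1, Cdh5 and Abcb1a, which encode claudin-5, a surface antigen, VE-cadherin and P-glycoprotein, summed to 6865 UMIs per 1000000 in the cluster and to 4.71 in all other cells. A UMI is a unique molecular identifier, which stands for 1 captured RNA molecule, and levels are the UMIs of a gene per 1000000 UMIs summed over the cells of a library (CPM). Of the 393 cells, 332 had UMIs of at least 2 of the 4 markers and 61 had none. Outside the cluster, 7 cells of the series had 2 or more. The genes with the highest fold over other cells were Sox18, Adcy4, Cdh5, Sox17 and Adgrl4, which are genes of endothelium. The 332 cells are called marker-positive below. They were 91 WT, 149 rd10-vehicle and 92 rd10-TMB cells, with a median of 9508, 10227 and 10062 UMIs per cell.

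The 61 cells with no endothelial marker were led by neuronal genes. Their highest folds over the rest of the series were those of Neto1 (991 CPM against 1.89), Gsg1l2, Tacr3 and Nxph1. The bipolar markers Vsx1, Gng13 and Grik1 passed the marker rule, but none was among the top 10 genes, so these cells are left unnamed. Their median mitochondrial share of UMIs was 12.1%, against 3.60% in marker-positive cells. They were 46 WT, 7 rd10-vehicle and 8 rd10-TMB cells and held 20.3%, 1.93% and 2.50% of the UMIs of the cluster. Since that share dilutes endothelial genes in WT, gene levels below are those of the marker-positive cells unless the whole cluster is named.

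Pericyte transcripts were present in most marker-positive cells. The 10 pericyte markers, among them Pdgfrb, Rgs5, Kcnj8 and Vtn, summed to 7879, 9627 and 10094 CPM in WT, rd10-vehicle and rd10-TMB, against 286 in all other cells. The cells fell into 101 with UMIs of at most 2 of the 10 markers (pericyte-low), 37 between, and 194 with at least 6 (pericyte-high). The median depth was 4499 UMIs in pericyte-low and 13541.5 in pericyte-high cells. All 194 pericyte-high cells of cluster 11 had at least 3 endothelial markers, while 50 of the 55 cells with at least 6 pericyte markers in cluster 14 had none. Pericyte-high cells made up 44.0% (33.6 to 54.8) of marker-positive WT cells, 63.8% (55.5 to 71.5) of rd10-vehicle cells and 64.1% (53.5 to 73.9) of rd10-TMB cells. Main results are also given by stratum, and whether an RNA of a pericyte-high cell came from an attached pericyte was not tested.

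**Figure D1:**
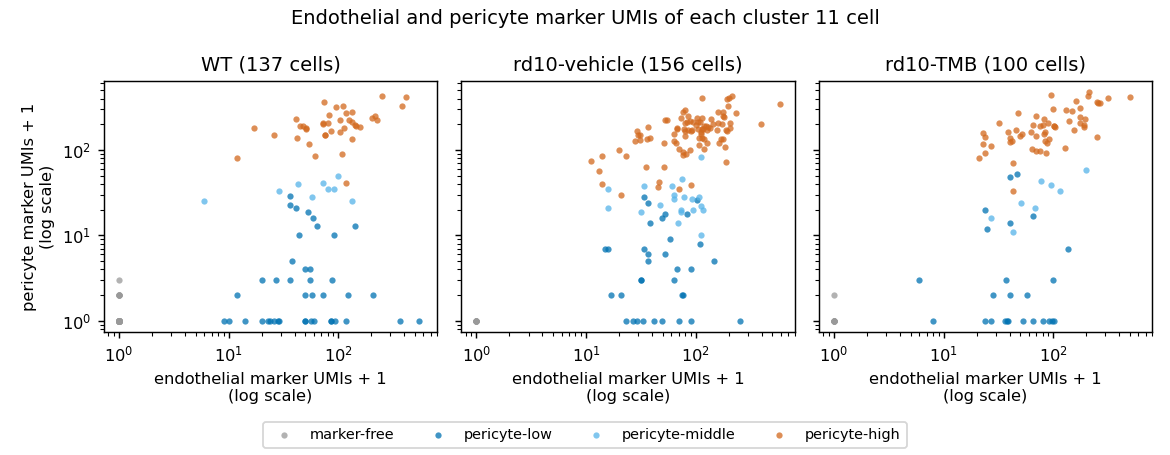
Each point is 1 cell of cluster 11, with the summed UMIs of 4 endothelial markers plus 1 on the x axis and of 10 pericyte markers plus 1 on the y axis, both on log scales, in WT, rd10-vehicle and rd10-TMB. The grey marker-free cells, 46 of them in WT, lie at the left edge, and the orange pericyte-high cells (40, 95 and 59) lie at the top in each library.

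Transcripts of most other cell types were low. Summed microglia markers were at 27.8, 33.9 and 31.8 CPM in WT, rd10-vehicle and rd10-TMB, with C1qa, C1qc, Tmem119 and Aif1 at 0, and astrocyte markers at 27.8, 37.3 and 40.8, with Pax2, Slc14a1 and Ntsr2 at 0. Muller glia markers were at 2327, 2205 and 2616 CPM, against 7977 in the other WT cells and 27679.6 and 25981 in the other cells of the rd10-vehicle and rd10-TMB libraries, and none passed the marker rule. Rod markers were at 698, 289 and 552 CPM. Gnat1 was among the 5 lowest log2 ratios of rd10-vehicle over WT among genes with at least 100 UMIs. Haemoglobin transcripts, whose near-identical gene copies share reads, were at 975, 3406 and 2892 CPM, in pericyte-low cells at 0, 4.91 and 7.82. Smooth muscle markers were at 277 CPM in WT against 476 in the rd10-vehicle and 373 in the rd10-TMB library, and the part of these cell types in the results was not tested. Across the series, 25 cell barcodes were shared by 2 libraries and 0 by all 3.

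The share of endothelial cells in a library depended on the marker-free cells. The whole cluster made up 3.06% of WT cells (137 of 4478, 2.57 to 3.61), 2.62% of the rd10-vehicle cells (156 of 5952, 2.23 to 3.06) and 2.08% of rd10-TMB cells (100 of 4812, 1.69 to 2.52). The marker-positive cells alone made up 2.03% (1.64 to 2.49), 2.50% (2.12 to 2.93) and 1.91% (1.54 to 2.34). The order of WT and rd10-vehicle turned with that choice, and their intervals overlapped under both. A share also depends on how many photoreceptors remain in the library, which cannot be told apart here from the number of vessel cells.

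The count of genes past a 2-fold limit depended on the same cells. Over the whole cluster, 127 of 7585 genes with at least 50 UMIs were at least 2-fold higher in rd10-vehicle than in WT (1.67%) and 416 were at least 2-fold lower (5.48%). In the marker-positive cells it was 83 higher (1.2%) and 66 lower (0.954%) of 6918. For rd10-TMB over WT the whole cluster gave 99 higher (1.42%) and 379 lower (5.42%) of 6991, and the marker-positive cells gave 47 higher (0.754%) and 48 lower (0.77%) of 6237. Among genes with at least 100 UMIs, the lowest whole-cluster log2 ratios of rd10-vehicle over WT belonged to Six3os1 (-4.06), Car10, Epha5, Bex1 and Cdh8. Cdh8, and Tacr3 and Nxph1 among cluster-enriched genes, were also leading genes of the marker-free cells. Between the rd10 libraries, 27 genes were higher (0.376%) and 27 lower (0.376%) of 7174 over the whole cluster, and 24 higher (0.341%) and 27 lower (0.384%) of 7028 in marker-positive cells.

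**Figure D2:**
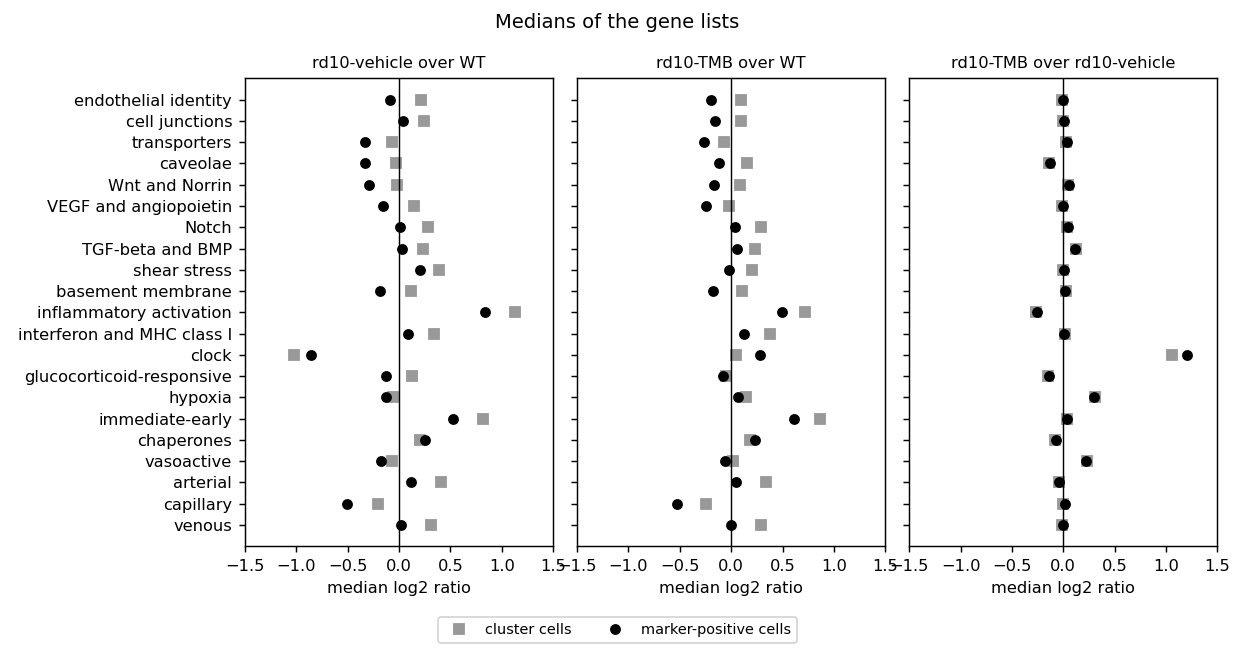
Median log2 ratio of each gene list (x axis) for the 3 pairs of libraries, in all cells of cluster 11 (grey squares) and in marker-positive cells (black circles). Against WT most circles lie left of the squares, and for rd10-TMB over rd10-vehicle they nearly coincide, with the clock list farthest from 0 at 1.06 and 1.20 over the 9 members with 50 UMIs in both rd10 libraries together.

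Atp8b1, Dusp2, Lrg1 and Scgb3a1 had the highest log2 ratios of rd10-vehicle over WT, together with the haemoglobin gene Hbb-bt. Atp8b1, which encodes a phospholipid flippase, had 2 UMIs in WT against 104 in the rd10-vehicle and 44 in the rd10-TMB library, or 1.80, 58.8 and 35.9 CPM. Its log2 ratio of rd10-vehicle over WT was 4.46 (3.14 to 8.10), which rests on the 2 WT molecules. In pericyte-low cells it had 0, 16 and 4 UMIs. The other cells of each library held 0.0572, 0.199 and 0.107 CPM, so the transcript was close to absent outside these cells.

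Dusp2 (chr2:127336159-127338377, GRCm38.p6) encodes a phosphatase that inactivates MAP kinases. It had 15 UMIs in WT against 383 in the rd10-vehicle and 186 in the rd10-TMB library, or 13.5, 216 and 152 CPM. Its log2 ratio over WT was 3.92 (3.27 to 4.86) in rd10-vehicle and 3.41 (2.73 to 4.36) in rd10-TMB. For rd10-vehicle it was 2.39 (1.47 to 3.60) in pericyte-low and 4.81 (3.75 to 7.01) in pericyte-high cells, where the pericyte-low value rests on 11 WT and 36 rd10-vehicle UMIs, under the minimum of 50. After each cell was thinned to 1000 UMIs, 1.11%, 10.7% and 9.78% of WT, rd10-vehicle and rd10-TMB cells had a UMI of Dusp2, against 5.49%, 55.0% and 44.6% without thinning. Rod-like cells of cluster 1 had none in any library, at a median of 1423, 1406 and 1536 UMIs per cell, and for the 488 that were thinned in rd10-vehicle the upper limit for cells holding a UMI at that depth was 0.615%, which sets no limit on cells that express the gene.

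Scgb3a1 (chr11:49663595-49665118), a small secreted protein of the secretoglobin family, had 10 UMIs in WT against 123 in the rd10-vehicle and 73 in the rd10-TMB library. Its log2 ratio over WT was 2.83 (2.02 to 4.05) in rd10-vehicle and 2.61 (1.77 to 3.85) in rd10-TMB, and for rd10-vehicle 2.45 in pericyte-low, on 4 WT and 15 rd10-vehicle UMIs, and 2.74 in pericyte-high cells. Thinned to 1000 UMIs, 1.11%, 6.71% and 4.35% of cells had a UMI of it, against 9.89%, 37.6% and 32.6% without thinning and none of the rod-like cells. Scgb3a1 thus showed the same order of libraries on both scales.

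Lrg1 (chr17:56119678-56121946), a secreted glycoprotein that modulates TGF-beta signalling in vessels, had 10 UMIs in WT against 218 in the rd10-vehicle and 70 in the rd10-TMB library. Its log2 ratio of rd10-vehicle over WT was 3.65 (2.87 to 4.86), but 1 cell held 34.4% of its rd10-vehicle UMIs. After thinning to 1000 UMIs 2.22%, 4.03% and 2.17% of cells had a UMI of Lrg1, against 3.30%, 25.5% and 16.3% without thinning, so the libraries differed less in the share of cells than in the level. Plaur, the urokinase receptor gene, had 6, 55 and 36 UMIs and a log2 ratio of 2.33 (1.31 to 4.04) in rd10-vehicle over WT. These genes were higher in both rd10 libraries than in WT. With WT cells limited to those with Xist and no Y-linked UMI, the whole-cluster log2 ratios of rd10-vehicle over WT were 3.95 for Atp8b1, 4.82 for Dusp2, 2.78 for Scgb3a1 and 4.28 for Lrg1.

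**Figure D3:**
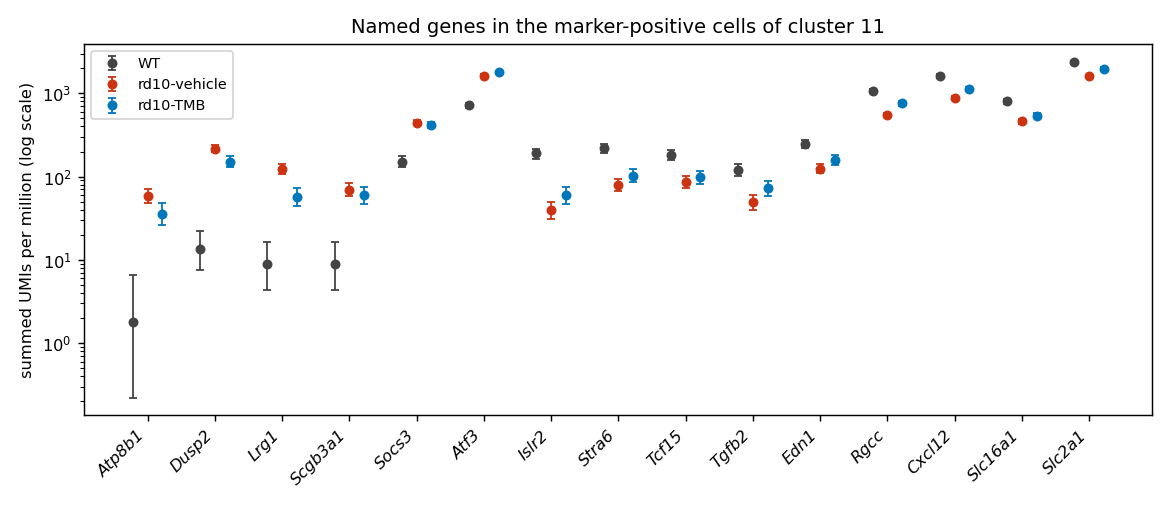
CPM (log scale) of 15 named genes in the marker-positive cells of WT (black), rd10-vehicle (red) and rd10-TMB (blue), with exact Poisson intervals as bars. From Atp8b1 to Atf3 both rd10 libraries lie above WT (Dusp2 at 216 and 152 against 13.5), and from Islr2 to Slc2a1 both lie below it (Islr2 at 39.6 and 59.5 against 189.5).

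In pericyte-high cells most inflammatory activation genes with 50 UMIs over both libraries were higher in rd10-vehicle than in WT. Several of them passed that minimum only through rd10-vehicle. In pericyte-low cells the list was not clearly on either side of 0. Icam1, Vcam1, Il1r1, Lrg1, Lcn2, Ackr1 and Selp are also in the venous list described below, and the part of venous cells was not tested. Of 30 genes in the list, 19 had 50 UMIs, of which 12 were higher, 7 of them past 2-fold, with a median log2 ratio of 0.83. Of all 6918 genes with 50 UMIs, 48.1% were higher and 1.2% were past 2-fold higher, and their median was -0.01. Lrg1, Ch25h, Cxcl1 and Il6ra passed the minimum only through rd10-vehicle. Of the 13 members with 50 UMIs in each library, 7 were higher and 3 past 2-fold, with a median of 0.49. In pericyte-high cells 15 of 18 were higher, with a median of 1.30, where 45.1% of all genes were higher, against 47.1% in pericyte-low cells. Among the 18, Icam1 (12 WT and 79 rd10-vehicle UMIs), Vcam1 (25 and 152) and Il1r1 (16 and 89) passed the minimum only through rd10-vehicle. For the 10 genes with 50 UMIs in both strata, 8 were higher in pericyte-high cells, with a median of 0.97, and 3 in pericyte-low cells, with a median of -0.46. Those with 50 UMIs in each library had pericyte-high log2 ratios of 1.58 (Socs3), 1.47 (Cebpd), 0.54 (Stat3), 0.15 (Il6st), 0.02 (Icam2), -0.12 (Nfkbia) and -0.93 (Edn1). In pericyte-low cells Icam1, Vcam1, Il1r1 and Edn1 passed only through WT. The pericyte-low sum of WT held 2 droplets of 59352 and 52760 UMIs, of 347026 in all. Without the 2 deepest cells of each library, 5 of the same 10 genes were higher in pericyte-low cells, with a median of -0.05. Of these 10, Icam1, Il1r1 and Il6st then had under 50 UMIs over both libraries.

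Single members differed between the strata. Icam1, the adhesion molecule ICAM-1, had a log2 ratio of -1.09 (-2.08 to -0.32) in pericyte-low and 1.62 (0.83 to 2.73) in pericyte-high cells. Il1r1, an interleukin-1 receptor, had -2.15 (-3.86 to -1.13) and 1.40 (0.69 to 2.34). Cebpd, a transcription factor of the acute phase, had -0.53 (-0.99 to -0.12) and 1.47 (1.26 to 1.71). For these 3 of the 10 members the intervals lay on opposite sides of 0. Without the 2 deepest cells of each library the pericyte-low log2 ratio was -1.33 (-2.91 to -0.24) for Icam1, -1.86 (-4.60 to -0.46) for Il1r1 and -0.17 (-0.74 to 0.36) for Cebpd, so the interval of Cebpd then spanned 0. Cebpd was also at 299.7, 2315 and 1858 CPM in the other cells of WT, rd10-vehicle and rd10-TMB. Cxcl1, a neutrophil-attracting chemokine, had 44, 357 and 174 UMIs, of which 3, 4 and 1 were in pericyte-low cells. Vcam1, the adhesion molecule VCAM-1, had log2 ratios of 0.02 (-0.62 to 0.61) in pericyte-low and 1.55 (0.98 to 2.27) in pericyte-high cells, and in pericyte-low cells without the 2 deepest it had 0.83 (0.03 to 1.66). Lcn2, an acute-phase protein, had only 17, 22 and 11 UMIs, against 11.2, 360.4 and 191 CPM in the other cells.

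Socs3 and Stat3 were higher in both strata. Socs3, the feedback inhibitor of cytokine receptors that signal through STAT3, was at 151 CPM in WT against 443 in the rd10-vehicle and 417 in the rd10-TMB library. Its log2 ratio of rd10-vehicle over WT was 1.55 (1.31 to 1.80), with 1.03 (0.49 to 1.58) in pericyte-low and 1.58 (1.30 to 1.90) in pericyte-high cells. Thinned to 1000 UMIs, 5.56%, 29.5% and 22.8% of WT, rd10-vehicle and rd10-TMB cells had a UMI, against 37.4%, 81.9% and 79.3% without thinning. Rod-like cells had 0.210%, 2.87% and 1.80% after the same thinning, and the other cells of each library were at 76.7, 851 and 758 CPM, so Socs3 was higher outside the endothelium too. The part of free RNA from those cells was not tested. Stat3 was at 115, 178 and 176 CPM, with a log2 ratio of 0.74 (0.08 to 1.39) in pericyte-low and 0.54 (0.18 to 0.94) in pericyte-high cells. Of the receptors upstream, Osmr, the oncostatin M receptor, was at 59.3, 119 and 113 CPM, Il6ra at 17.1, 41.3 and 24.5 and Il6st, the shared gp130 chain, at 120.4, 120.4 and 129. The 300 bases around the RefSeq start site of Socs3 (chr11:117969317-117969616, minus strand, GRCm38.p6) are shown because they hold the letters TTCNNNGAA, in capitals, the kind of motif that STAT factors bind and that reads the same on both strands.
Socs3: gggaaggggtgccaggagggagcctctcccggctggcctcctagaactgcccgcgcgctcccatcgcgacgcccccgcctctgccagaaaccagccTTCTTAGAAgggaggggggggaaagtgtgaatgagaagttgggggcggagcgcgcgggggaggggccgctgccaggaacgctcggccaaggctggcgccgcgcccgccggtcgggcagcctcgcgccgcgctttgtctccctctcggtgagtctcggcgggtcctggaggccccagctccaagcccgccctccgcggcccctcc
These letters were in a window of 9.55% of the 27025 genes with a RefSeq start site window of that length and in 4 of 24 inflammatory activation genes with a window (Icam1, Sele, Socs3 and Tnfrsf1a). A match is a description of the letters, not of a bound site.

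**Figure D4:**
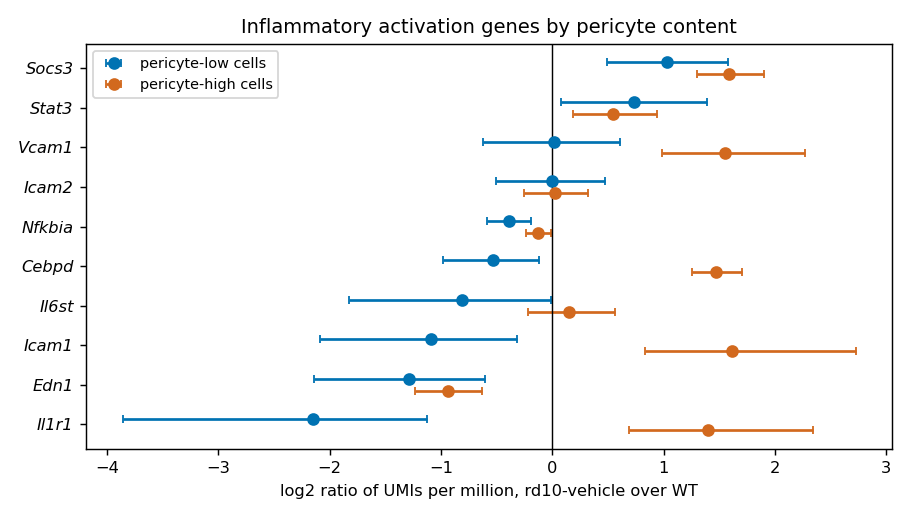
Log2 ratio of rd10-vehicle over WT (x axis) with exact conditional intervals for the 10 inflammatory activation genes with at least 50 UMIs in both strata, in pericyte-low cells (blue) and pericyte-high cells (orange). Socs3 and Stat3 lie above 0 in both strata, Edn1 and Nfkbia below 0 in both, and Icam1, Il1r1 and Cebpd on opposite sides, which for Cebpd was lost without the 2 deepest pericyte-low cells of each library. Icam1 and Il1r1 reached 50 UMIs in each stratum only through the library where they were high.

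Immediate-early genes were higher in rd10-vehicle than in WT in both strata. All 16 members were higher in rd10-vehicle than in WT, with a median log2 ratio of 0.53 and 1 past 2-fold, where 48.1% of all genes were higher and 1.2% past 2-fold. The 14 with enough UMIs in both strata were higher in both, with medians of 0.64 in pericyte-low and 0.49 in pericyte-high cells. For rd10-TMB over WT 11 of 13 were higher in pericyte-low and 16 of 16 in pericyte-high cells, where 48.6% and 45.7% of all genes were, and Ier3, an immediate-early gene chosen after its values were seen, was at -0.86 (-1.16 to -0.60) in pericyte-low cells. Fos was at 7411 CPM in WT against 11123 in the rd10-vehicle and 11363 in the rd10-TMB library. Atf3, a stress-induced transcription factor and the member past 2-fold, was at 720.4, 1623 and 1781 CPM, with log2 ratios of 1.17 (1.06 to 1.29) in rd10-vehicle and 1.30 (1.19 to 1.42) in rd10-TMB over WT. Klf2, a factor that responds to flow, was at 5956, 7941 and 7936 CPM. These genes also respond to tissue dissociation, and Fos was at 1416, 4798 and 4309.5 CPM and Atf3 at 31.7, 563 and 389 in the other cells of each library, higher in rd10 there as well. The part of dissociation was not tested.

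Interferon and MHC class I genes differed by small steps between the libraries. Of 28 members with 50 UMIs, 19 were higher in rd10-vehicle than in WT, none past 2-fold, with a median log2 ratio of 0.08, where 48.1% of all genes were higher and 1.2% past 2-fold higher. H2-K1 was at 482, 617 and 633 CPM, H2-D1 at 743, 943 and 944 and B2m, the shared light chain, at 719, 759.6 and 689. In Muller glia-like cluster 0 the same list had 27 of 27 higher, 18 past 2-fold, where 43.5% of the 12404 genes of that cluster were higher and 4.17% past 2-fold. Its median was 1.30 there, and in astrocyte-like cluster 12 a median of 0.39. The difference between these classes could not be tested.

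Among endothelial-enriched genes with at least 100 UMIs, Islr2, Stra6 and Tcf15 had some of the lowest log2 ratios of rd10-vehicle over WT. Islr2 (chr9:58196297-58204319), a leucine-rich repeat membrane protein, had 211 UMIs in WT against 70 in the rd10-vehicle and 73 in the rd10-TMB library. Its log2 ratio over WT was -2.25 (-2.67 to -1.86) in rd10-vehicle and -1.66 (-2.08 to -1.28) in rd10-TMB, and for rd10-vehicle -1.79 in pericyte-low and -2.19 in pericyte-high cells. Both strata showed the lower level, and the rest of the retina had 2.63, 0.199 and 0.0716 CPM. Stra6 (chr9:58063793-58154004), the receptor for retinol-binding protein, had 245 UMIs in WT against 140 in the rd10-vehicle and 126 in the rd10-TMB library, with log2 ratios over WT of -1.47 (-1.79 to -1.17) and -1.09 (-1.42 to -0.78). Thinned to 1000 UMIs, 17.8%, 7.38% and 5.43% of cells had a UMI of Stra6, against 67.0%, 44.3% and 48.9% without thinning and 0.105%, 0% and 0% of thinned rod-like cells. Tcf15, a transcription factor of endothelium that takes up fatty acids, had 202, 152 and 120 UMIs and log2 ratios over WT of -1.08 (-1.39 to -0.77) and -0.89 (-1.23 to -0.56). All 3 genes were lower in both rd10 libraries than in WT. Over the alternative settings the whole-cluster log2 ratio of rd10-vehicle over WT lay from -2.26 to -1.67 for Islr2, from -1.51 to -0.19 for Stra6 and from -1.95 to -0.60 for Tcf15.

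Genes of capillary endothelium were lower as a list. Of 12 members, 11 were lower in rd10-vehicle and 12 in rd10-TMB than in WT, with median log2 ratios of -0.51 and -0.53, and 10 of 12 were lower in both strata of rd10-vehicle. Of all genes, 48.1% were higher in rd10-vehicle and 47.0% in rd10-TMB than in WT. Over the whole cluster, which keeps the marker-free cells, the median for rd10-vehicle was -0.21, and it was 0.08 over the 8 genes left after each cell was thinned to 1000 UMIs and 0.25 over 11 genes in cells without UMIs of Pdgfrb, Kcnj8, Abcc9 and Vtn. Rgcc, a cell-cycle regulator that marks capillaries, was at 1059 CPM in WT against 552 in the rd10-vehicle and 761 in the rd10-TMB library, with log2 ratios over WT of -0.94 (-1.06 to -0.82) and -0.48 (-0.60 to -0.35). Cxcl12, the ligand of CXCR4, was at 1609, 878 and 1123 CPM and Tgfb2, a TGF-beta ligand, at 121, 49.2 and 72.6. Mfsd2a, the lipid transporter that keeps transcytosis low, was the member not lower in rd10-vehicle, at 234, 279.7 and 233 CPM. Car4, a carbonic anhydrase of capillaries, had a log2 ratio of -1.11 that came from pericyte-low cells, at -2.90 there and -0.19 in pericyte-high cells, and 1 WT cell held 23.6% of its UMIs. The summed capillary list was at 10318, 7052 and 7382 CPM in WT, rd10-vehicle and rd10-TMB. The arterial list was at 2956, 3749 and 3885 CPM, of which Mgp alone made up 1848, 2660.1 and 2796, and the venous list at 2980.5, 3044 and 2883. These sums differed by stratum, and the venous list shares Icam1, Vcam1, Il1r1 and others with the inflammatory activation list. In pericyte-high cells the arterial list was at 3405, 4205 and 4331 CPM and the venous list at 2284, 3160.0 and 2889. In pericyte-low cells the arterial list was lower in both rd10 libraries, at 2225, 1592 and 1438 CPM, and at 2358, 1436 and 1387 without the 2 deepest cells of each library. The venous list there was at 4642, 2741 and 3040.2 CPM, but at 2465, 2442 and 3051 without those cells, so its difference between WT and rd10-vehicle rested on them. In these sums, fewer capillary cells and less RNA of these genes per cell cannot be told apart.

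Transporter and Norrin pathway genes were lower by smaller steps. Of 24 transporters with 50 UMIs, 19 were lower in rd10-vehicle than in WT, with a median log2 ratio of -0.33 and none past 2-fold, where 0.954% of all genes were past 2-fold lower and 48.1% were higher. Slc2a1, the glucose transporter GLUT1, was at 2362 CPM in WT against 1593 in the rd10-vehicle and 1963 in the rd10-TMB library, with log2 ratios over WT of -0.57 (-0.65 to -0.49) and -0.27 (-0.35 to -0.19). Slc16a1, the lactate carrier MCT1, was at 805, 464 and 541 CPM, Slc7a5, a carrier of large neutral amino acids, at 1296, 973 and 1113 and Abcb1a at 968, 874 and 894. Over the whole cluster, with the marker-free cells, the transporter median was -0.07 and the log2 ratio of Slc2a1 -0.27. In the Wnt and Norrin list 17 of 18 members were lower, with a median of -0.29 in marker-positive cells and -0.02 over the whole cluster. Fzd4, the Norrin receptor, had 343, 351 and 249 UMIs and log2 ratios over WT of -0.64 (-0.85 to -0.42) and -0.60 (-0.84 to -0.36), and Apcdd1, a Wnt target of barrier endothelium, -0.76 (-1.05 to -0.47) and -0.56 (-0.87 to -0.25). Lrp5, Tspan12 and the target Lef1 had -0.19 (-0.67 to 0.31), -0.07 (-0.54 to 0.43) and -0.05 (-0.22 to 0.12) in rd10-vehicle.

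Junction and identity genes held no member past 2-fold. Of 17 junction genes, 9 were higher in rd10-vehicle than in WT, with a median log2 ratio of 0.04, a share near the 48.1% of all genes, of which 1.2% were past 2-fold higher and 0.954% lower. Cldn5 was at 3626, 4304 and 3484 CPM and Cdh5 at 514, 436 and 445. Of 29 endothelial identity genes, 9 were higher and 20 lower, with a median of -0.09. Plvap, the diaphragm protein of leaky vessels, had 0 UMIs in each library, which allows up to 2.69, 1.70 and 2.45 CPM. Edn1, the vasoconstrictor endothelin-1, was at 247, 125 and 159 CPM, with a log2 ratio of -0.98 (-1.25 to -0.72) in rd10-vehicle, and was lower in pericyte-low (-1.28) as well as pericyte-high cells (-0.93).

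A further 10 lists had medians within 0.4 of 0 between rd10-vehicle and WT. The median log2 ratio was -0.18 for basement membrane genes, -0.33 for caveolae, -0.16 for VEGF and angiopoietin, 0.01 for Notch and 0.03 for TGF-beta and BMP genes. It was 0.20 for shear stress genes, -0.12 for hypoxia, -0.13 for glucocorticoid-responsive, -0.18 for vasoactive and 0.25 for chaperone genes. Of 12 proliferation genes 1 had 50 UMIs, so that list is not described. The clock list is described with the rd10 libraries.

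Clock output genes separated the rd10 libraries, with the higher levels in rd10-TMB. Many of these genes are driven through E-box or D-box motifs and cycle over the day, with Arntl, which encodes BMAL1, in the opposite phase. Of 10 members, 7 had at least 50 UMIs in each library (Dbp, Tef, Hlf, Per1, Per3, Nr1d1 and Nr1d2). All 7 had log2 ratios of rd10-TMB over rd10-vehicle above 0 and 4 were past 2-fold, where 49.0% of all genes were higher and 0.341% past 2-fold. Their median log2 ratio was 1.03, against -0.01 for all genes. Against WT the same 7 genes were lower in rd10-vehicle, with a median of -0.85, where 48.1% of all genes were higher. In rd10-TMB 5 of the 7 were higher than in WT, with a median of 0.16, where 47.0% of all genes were higher. Dbp (chr7:45705100-45710203), a transcription factor of the PAR bZIP family, had 232 UMIs in WT against 188 in the rd10-vehicle and 381 in the rd10-TMB library, or 208, 106 and 311 CPM. Its log2 ratio of rd10-TMB over rd10-vehicle was 1.54 (1.29 to 1.81), with 2.95 (1.86 to 4.68) in pericyte-low cells, on 33 and 6 UMIs and thus under the minimum of 50, and 1.36 (1.09 to 1.63) in pericyte-high cells. Thinned to 1000 UMIs, 16.7%, 8.05% and 28.3% of cells had a UMI of Dbp, against 73.6%, 53.7% and 84.8% without thinning and 3.98%, 4.10% and 4.35% of thinned rod-like cells.

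The other clock output genes were also at their lowest CPM in rd10-vehicle. Tef, a relative of Dbp, was at 58.4, 32.2 and 75.8 CPM in WT, rd10-vehicle and rd10-TMB, with a log2 ratio of rd10-TMB over rd10-vehicle of 1.23 (0.74 to 1.74). Hlf, of the same family, was at 101, 40.1 and 92.9 CPM, with 1.20 (0.77 to 1.66). Per2, which encodes a repressor of the clock, had 17, 15 and 38 UMIs and a log2 ratio of 1.81 (0.97 to 2.84). Its relative Per3 had 64, 56 and 75 UMIs and 0.94 (0.43 to 1.48). Ciart, a further repressor, had 28, 9 and 41 UMIs and 2.60 (1.65 to 3.94). Ciart and Per2 reached 50 UMIs over the rd10 libraries through rd10-TMB, where they were high, so they are not counted above. Nr1d2 had 1.03 (0.67 to 1.40), Nr1d1 0.49 (0.23 to 0.76) and Per1 0.09 (-0.26 to 0.42), so the interval of Per1 spanned 0. Arntl went the other way, with 10 UMIs in WT against 49 in the rd10-vehicle and 9 in the rd10-TMB library and a log2 ratio of -1.79 (-3.13 to -0.88). Dbp was at 409.7, 319 and 474 CPM in the other cells of the retina, 587, 297 and 514 in Muller glia-like cells and 722, 183 and 522 in astrocyte-like cells, with rd10-vehicle lowest in each. The clock list had a median of 0.56 in Muller glia-like and 0.48 in astrocyte-like cells for rd10-TMB over rd10-vehicle. The hour at which each retina was taken was not given in the sources used here, so drug and hour cannot be told apart.

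**Figure D5:**
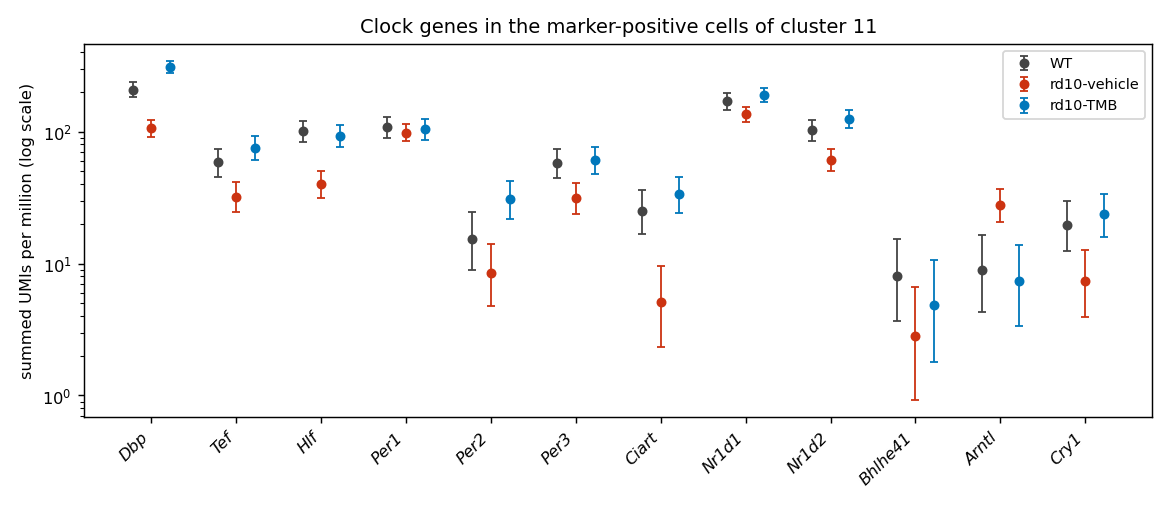
CPM (log scale) of the 10 clock output genes and of Arntl and Cry1 in the marker-positive cells of WT (black), rd10-vehicle (red) and rd10-TMB (blue), with exact Poisson intervals. The red point is lowest for all 10 clock output genes and for Cry1 and highest for Arntl, and Dbp is at 311 in rd10-TMB against 106 in rd10-vehicle.

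The promoter windows of Ciart, Tef and Per3 are shown because these clock genes were higher in rd10-TMB and hold the motifs. Each runs from 250 bases before to 50 after the RefSeq start site in GRCm38.p6, at chr3:95882179-95882478 (minus strand), chr15:81802423-81802722 (plus strand) and chr4:151044616-151044915 (minus strand). Capitals mark the E-box CACGTG, which reads the same on both strands, in Ciart and Tef, and the D-box TTATGTAA, or TTACATAA on the other strand, in Per3.
Ciart: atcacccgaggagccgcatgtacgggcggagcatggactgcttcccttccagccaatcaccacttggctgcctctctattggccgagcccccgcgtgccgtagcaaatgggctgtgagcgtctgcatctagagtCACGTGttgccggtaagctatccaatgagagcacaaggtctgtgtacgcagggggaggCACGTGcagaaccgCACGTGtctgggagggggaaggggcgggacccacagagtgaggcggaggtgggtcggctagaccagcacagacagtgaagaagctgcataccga
Tef: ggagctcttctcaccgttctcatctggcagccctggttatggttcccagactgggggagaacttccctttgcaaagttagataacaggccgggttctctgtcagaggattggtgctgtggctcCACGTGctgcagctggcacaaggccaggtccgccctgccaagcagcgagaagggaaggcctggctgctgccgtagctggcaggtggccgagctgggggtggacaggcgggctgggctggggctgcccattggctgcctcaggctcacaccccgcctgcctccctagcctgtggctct
Per3: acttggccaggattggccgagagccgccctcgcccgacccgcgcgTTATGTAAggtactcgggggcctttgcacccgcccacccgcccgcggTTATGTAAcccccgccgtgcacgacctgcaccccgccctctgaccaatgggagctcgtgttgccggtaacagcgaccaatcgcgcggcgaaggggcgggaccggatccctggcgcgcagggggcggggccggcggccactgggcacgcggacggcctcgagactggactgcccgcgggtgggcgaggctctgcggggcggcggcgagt
Ciart held 3 matches, Tef 1 and Per3 2. The E-box letters were in a window of 8.09% of all 27025 genes and in 4 of 9 clock output genes with a window (Tef, Per1, Ciart and Bhlhe41), and the D-box letters were in 1.11% of genes and in Per3 alone of the 9. A window without a match says only that these letters were not in it.

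Outside the clock list few genes separated the rd10 libraries. Cdkn1a (chr17:29090979-29100722), which encodes the cell-cycle inhibitor p21, had 924 UMIs in WT against 1723 in the rd10-vehicle and 639 in the rd10-TMB library, or 830.0, 974 and 521 CPM. Its log2 ratio of rd10-TMB over rd10-vehicle was -0.90 (-1.04 to -0.77), with -0.92 in pericyte-low and -0.89 in pericyte-high cells, and from -0.94 to -0.83 over the alternative settings. Rflnb, a regulator of filamin, was at 342, 276 and 136 CPM, with a log2 ratio of -1.01 (-1.28 to -0.76) and of -0.30 (-1.05 to 0.36) in pericyte-low cells. Slc22a8, an organic anion transporter of the barrier, was at 114, 79.1 and 42.4 CPM, with -0.88 (-1.39 to -0.43). These 3 genes were lowest in rd10-TMB. The heat-shock genes Hspa1a and Hspa1b, near-identical copies whose reads may be split, had -0.65 (-0.81 to -0.51) and -0.88 (-1.26 to -0.52). Zbtb16, which responds to glucocorticoids, had 1.06 (0.57 to 1.58). Lrg1 had -1.10, but 0.10 without the 2 deepest cells of each library.

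Most lists that separated rd10-vehicle from WT differed little between the rd10 libraries. The median log2 ratio of rd10-TMB over rd10-vehicle was -0.25 for inflammatory activation, 0.04 for immediate-early, 0.01 for capillary, 0.04 for transporter and 0.05 for Wnt and Norrin genes. Some genes that were lower in rd10 lay between the other libraries, with 0.46 (0.33 to 0.59) for Rgcc, 0.36 (0.25 to 0.46) for Cxcl12 and 0.30 (0.22 to 0.38) for Slc2a1. Socs3 had -0.09 (-0.25 to 0.08). Dusp2 had -0.51 (-0.77 to -0.26) over all marker-positive cells and 0.71 (0.01 to 1.41) in pericyte-low cells, so its order between the rd10 libraries turned with the stratum.

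Transcripts of the receptors that TMB acts on were scarce. Of 14 adrenergic and dopamine receptor genes, 12 were in the matrix, and 5 of these, the alpha-1 receptors Adra1a, Adra1b and Adra1d among them, had 0 UMIs in marker-positive cells, which allows up to 2.69, 1.70 and 2.45 CPM each. Adrb1, the target of metoprolol, had 1, 4 and 1 UMIs in WT, rd10-vehicle and rd10-TMB. The D2-like receptor Drd2 had 2, 1 and 1 UMIs and Drd4 had 11, 2 and 6. For Drd4 the log2 ratio was -2.67 (-6.34 to -0.93) for rd10-vehicle over WT, below 0 on few molecules, and 1.75 (-0.37 to 5.45) for rd10-TMB over rd10-vehicle. For Adrb1 and Drd2 the interval spanned 0 in each pair of libraries, so a difference was not detectable at this depth.

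Glial and vascular clusters of the same libraries had part of these differences. For rd10-vehicle over WT the inflammatory activation list had a median log2 ratio of 1.78 in Muller glia-like cluster 0, 1.11 in astrocyte-like cluster 12 and 1.56 over 4 genes in cluster 14, which was led by the smooth muscle genes Myh11 and Acta2 and passed all 10 pericyte markers. The immediate-early list had 0.63, 0.40 and 0.78 in these clusters. Dusp2 had 4 UMIs in rd10-vehicle and 0 in each of the other libraries in the 4770 cells of cluster 0. In cluster 12 it had 6 UMIs in rd10-vehicle and 0 in each of the others. In cluster 14 it had 0 in each library. The 332 marker-positive cells, most of them pericyte-high, held 15, 383 and 186. Cdkn1a was between 22.6 and 35.7 CPM in cluster 0, far under its level in the marker-positive cells. No test of these differences between clusters was possible.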

How the data were processed

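Retinas of WT, rd10-vehicle and rd10-TMB mice were profiled with 1 library (10x, v3 chemistry) each. Per the labels and the study, the authors aligned reads to mm10 with Cell Ranger 6.0.1, removed doublets with Scrublet, kept cells with at least 500 genes and clustered them in Seurat 3.2.2 after Harmony correction. In the matrix the authors deposited, a value is the natural log of 1 plus the UMIs per 10000 in that cell. The cell table they deposited gives counts, namely total UMIs and detected genes, and the cluster. UMIs were recovered from both files, and 32620606 of 32620606 entries came out whole within 0.001 UMI. The authors' tests over cells were not used. No cell was removed and no doublet caller was run.

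UMIs were summed per library, with totals of 1396149 (WT), 1804358 (rd10-vehicle) and 1257971 (rd10-TMB) in the cluster. Log2 ratios had 1 UMI added to each sum. A gene needed at least 50 UMIs over both libraries, and a 2-fold difference counted as called. Intervals were exact (Poisson for sums, Clopper-Pearson for shares, conditional for ratios), and for a count of 0 the limit was 3 counts. A marker passed at 20 CPM and 2-fold over other cells. Named genes were list genes with at least 50 UMIs, the receptors, and the 5 highest and 5 lowest ratios per pair among genes with at least 100 UMIs, over all genes and over genes enriched 4-fold. The same ranking in marker-positive cells and the pericyte strata were added after the data were seen. The members and lists were chosen with earlier results of these data known. Some genes that this rule names are not reported here. The scripts were tested on simulated counts. Python 3.11.15, numpy 2.4.6, scipy 1.17.1, pandas 2.3.3 and matplotlib 3.10.9 were used. Positions and promoters are from RefSeq on GRCm38.p6.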

Additional observations from a re-analysis of the deposited data

How the results depend on the processing

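No paired analysis was possible because each group was 1 library. The 2-fold counts of the whole cluster, as higher and lower genes, were 127 and 416 for rd10-vehicle over WT, 99 and 379 for rd10-TMB over WT and 27 and 27 for rd10-TMB over rd10-vehicle, and the counts that follow keep that order of pairs. Marker-positive cells gave 83 and 66, then 47 and 48. WT limited to cells that held Xist but no Y-linked UMI gave 82 and 171, then 55 and 123. Cells with at most 10% mitochondrial UMIs gave 147 lower genes, then 61 higher and 109 lower. Cells without UMIs of Pdgfrb, Kcnj8, Abcc9 and Vtn gave 259 lower genes, then 222 lower, then 8 higher and 11 lower. Pericyte-low cells, added after the data were seen, gave 24 and 56, then 25 and 62, then 5 higher, and pericyte-high cells 72 and 53, then 45 and 48. The mean over cells gave 328 higher, then 240 higher, then 90 and 94. Cells thinned to 1000 UMIs gave 52 and 53, then 31 and 43, then 1 and 5. A minimum of 20 UMIs gave 257 and 864, then 198 and 818, then 119 and 128, and 200 UMIs gave 45 and 70, then 29 and 64, then 5 and 4. A 1.5-fold limit gave 523 and 868, then 457 and 801, then 212 and 261.

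For rd10-vehicle over WT, the inflammatory activation median, 1.13 over the whole cluster, was 0.45 in cells without the 4 pericyte markers, -0.46 in pericyte-low cells and 0.39 in those without the 2 deepest of each library, where 7 genes kept 50 UMIs, against -0.05 on the same 10 genes. The immediate-early median, 0.82, was 1.20 with the mean over cells and also 1.20 without the 4 pericyte markers, 1.06 after thinning, 0.66 with female WT cells, 0.64 in pericyte-low cells, 0.62 at 10% mitochondrial UMIs, 0.53 in marker-positive cells, 0.51 without their 2 deepest, 0.45 in pericyte-high cells and 0.42 in pericyte-low cells without the 2 deepest. The capillary median, -0.21, was -0.016 with the mean over cells, -0.0041 without the deepest 5% of cells, 0.25 without the 4 pericyte markers and 0.083 after thinning. The clock median of rd10-TMB over rd10-vehicle, 1.06, was 1.66 without the 4 pericyte markers, where 1 gene was left, and pericyte-low cells held too few UMIs to give it. Cebpd in rd10-vehicle over WT was -0.53 in pericyte-low cells and -0.17 without the 2 deepest, Rflnb in rd10-TMB over WT was 0.031 in pericyte-low cells without the 2 deepest, and Lrg1 in rd10-TMB over rd10-vehicle was 0.10 in marker-positive cells without the 2 deepest. The cluster's share of WT cells was 4.25% among cells with 1000 genes and 2.03% in marker-positive cells. With Muller glia-like and rod-like cells left out of the total it was 4.95%, 5.37% and 4.31% in the WT, rd10-vehicle and rd10-TMB libraries. Except where the setting itself removes cells or genes, the cause was not tested.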
